A study of Homo sapiens with 12 samples.

Results

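The genes of the extracellular matrix described here are the collagen chains, the laminin chains and 12 single matrix glycoproteins, measured by RNA sequencing of spheroids of the human prostate cancer cell line DU145. The members were chosen by symbol: genes named COL, a number, A and a number, genes named LAMA, LAMB or LAMC with a number, and FN1, TNC, THBS1, SPARC, FBN1, FBN2, NID1, NID2, AGRN, HSPG2, SVEP1 and VWA2. They are 67 of the 26485 genes counted, of which 44 are collagen chains and 11 are laminin chains. SVEP1 and VWA2 are also among the genes that the study picked from these same samples for its follow-up experiments, so their changes are not independent evidence.

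All 3 lines carry the CRISPR-Cas9 knock-out of ITGA2, the gene of the α2 subunit of the collagen receptor α2β1 integrin. DU145KO received no further transfection, DU145KO+α2 was stably transfected with α2 integrin cDNA in the vector pAWneo2, and DU145KO+vector with the empty vector. Edited cells were selected by GFP expression and checked for loss of surface α2, both transfected lines were kept in geneticin while DU145KO was not, and the sources used here do not say that a line is 1 clone. Each line gave 4 samples, described in the study's methods as independent biological replicates, from spheroids of 8000 cells grown for 72 hours in serum-free RPMI.

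Collagens are trimers of α chains, and the kinds differ in what they build: fibrils, the sheet-like network of collagen IV in basement membranes, beaded filaments, or anchors that cross the cell membrane. Laminins are trimers of an α, a β and a γ chain and form the other network of the basement membrane, to which nidogen, perlecan and agrin bind. α2β1 integrin is best known as a receptor for collagens, and the study's introduction also lists laminins, tenascin C and perlecan among its ligands. Epithelial cells also hold on to laminin through other integrins and through hemidesmosomes.

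The libraries held 13948734 to 19988111 gene counts each, and the members took between 0.411% and 0.567% of them. ITGA2 had 305 ± 33.5 CPM (SD, n = 4; read counts scaled to the library size and normalized by TMM) in DU145KO+α2 and 13.0 to 25.8 CPM in the 8 α2 negative samples, and its transcript was still counted in the edited lines. Of 7 epithelial markers, 6 were above 3 counts in at least 1 sample (KRT5 was not), with a summed level of 965 to 1231 RPKM in DU145KO, 931 to 1106 RPKM in DU145KO+vector and 718 to 949 RPKM in DU145KO+α2. Among these, CDH1 and EPCAM were lower in DU145KO+α2 than in DU145KO (log2 fold changes -1.13 and -1.14, adjusted p = 0.000540 and 1.86e-05 from edgeR's quasi-likelihood test). Their means in the α2 negative vector line were also below those in DU145KO. EPCAM had 91.7 RPKM in DU145KO, 51.95 in DU145KO+vector and 42.03 in DU145KO+α2, and CDH1 had 27.68, 20.7 and 12.75 RPKM. Of 8 fibroblast markers, 2 (PDGFRA and PDGFRB) were above 3 counts, LUM, THY1, POSTN and DPT had no count in any sample, and their summed level was 0.0895 to 0.264 RPKM. Of the 6 endothelial markers 4 and of the 6 leukocyte markers 3 were above 3 counts, with summed levels of 0.196 to 0.723 RPKM and 2.06 to 2.70 RPKM. In RNA from whole spheroids, fewer cells of a type and less RNA per cell cannot be told apart.

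Among the members, the highest transcripts in these spheroids were those of laminins, collagen VI, collagen XVIII, agrin and thrombospondin. Levels of different genes are compared here only in RPKM, read counts scaled to the length of the gene and to the library size. The highest member was LAMA3, with a mean of 117 RPKM over the 12 samples. It was followed by LAMB2 at 64.8, LAMB3 at 59.1, AGRN at 57.1, COL6A1 at 55.1 and COL6A2 at 52.9 RPKM. THBS1, which codes for the adhesion-modulating glycoprotein thrombospondin, had 46.4 RPKM, LAMC1 43.6, COL18A1 38.6 and LAMA5 35.3 RPKM. TNC (11.7), HSPG2 (10.5), LAMB1 (9.85), FN1 (9.01) and LAMA1 (8.54 RPKM) completed the 15 highest. In all, 30 members had a mean of at least 1 RPKM and 12 of at least 10 RPKM. Neighbours in this order from LAMB2 to COL6A2 differed by less than their spread over samples.

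**Figure D1:**
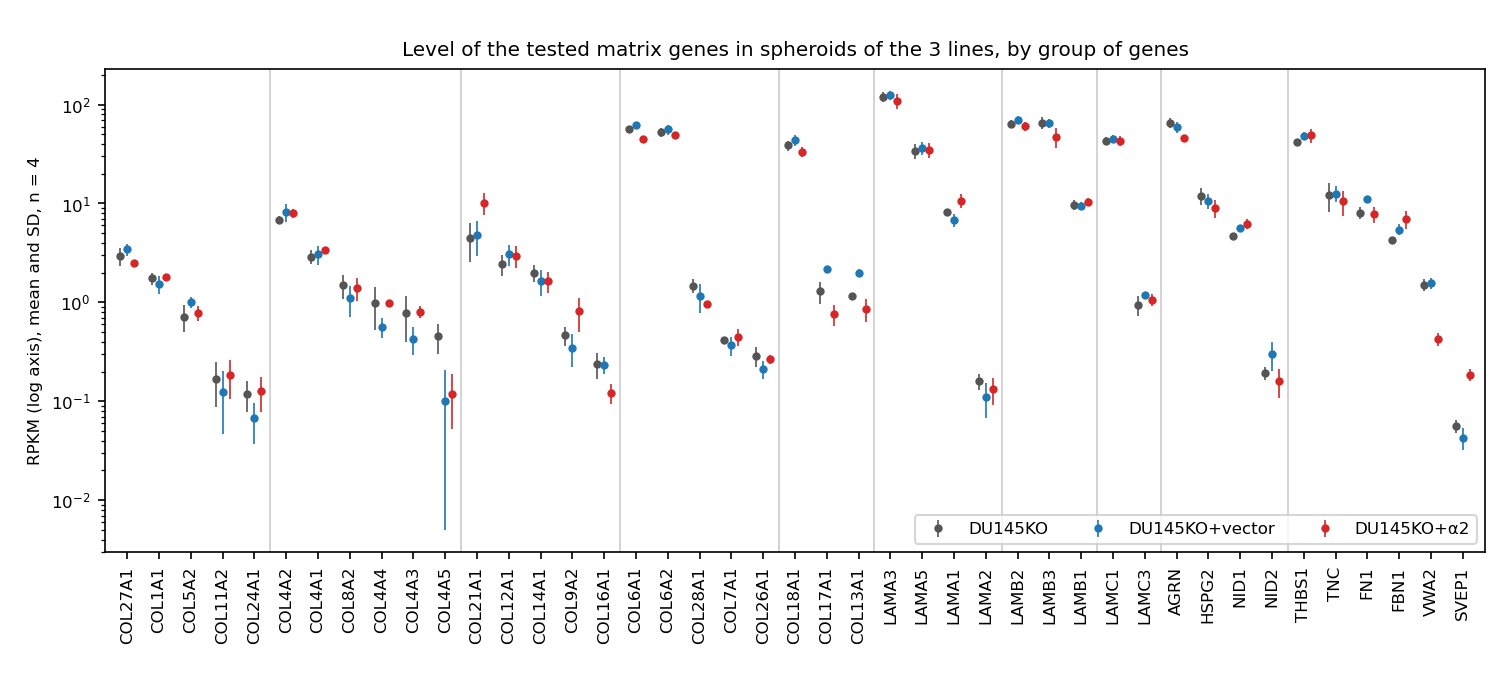
RPKM (log axis) of the 43 tested members in each line, as mean and SD of 4 samples, with grey lines between the groups of genes. The lower bar of COL4A5 in DU145KO+vector is shortened because its SD exceeds its mean. LAMA3 is the highest at 117 RPKM over all samples, and the fibrillar collagens have means over all samples of 2.95 RPKM or below.

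Several chains of stromal collagens were near or below detection, while others such as COL1A1, COL12A1 and COL14A1 were measured. COL3A1, COL1A2, SPARC and COL6A3 were among the 17 members that were never above 3 counts in any sample, the others being COL10A1, COL11A1, COL19A1, COL20A1, COL22A1, COL23A1, COL25A1, COL4A6, COL6A5, COL6A6, COL9A1, LAMA4 and LAMB4. COL11A1 and COL22A1 had no count at all. A count of 3 corresponds to 0.150 to 0.215 CPM depending on the sample, a limit that covers counting error only. COL1A1, the partner of COL1A2 in the usual collagen I trimer, was nevertheless measured at 1.69 RPKM, and COL6A1 and COL6A2 were among the highest members while COL6A3, the third chain of the usual collagen VI trimer, was never above 3 counts. Another 7 members (COL9A3, COL8A1, COL5A3, COL15A1, FBN2, COL2A1 and COL5A1) reached at most 13 counts and were not tested, which left 43 of the 67 members for the tests.

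The main question of the design is what the re-expressed α2 subunit changes, for which DU145KO+α2 is compared with the vector control. Each construct is represented by samples of a single line, so the p-values measure the spread between samples of a line. An effect of α2 therefore cannot be told apart from other differences between the lines. The members changed in both directions, and more of them were lower than higher. Of the 43 tested members, 13 passed an adjusted p of 0.05 (30.2%), where 11.9% of all 14732 tested genes did. Lower in DU145KO+α2 were 10 members (23.3% against 5.95% of all genes), namely AGRN, COL13A1, COL16A1, COL17A1, COL18A1, COL27A1, COL6A1, FN1, LAMB3 and VWA2. The 3 higher members, COL9A2, LAMA1 and SVEP1, made up 6.98%, near the 5.96% of all genes. Without SVEP1 and VWA2, 11 of 41 members (26.8%) passed. The median log2 fold change of the members was -0.06 and that of all tested genes -0.01. The summed epithelial markers also ranged lower in DU145KO+α2 (above), with CDH1 at -0.70 (adjusted p = 0.00981) and EPCAM at -0.31 (adjusted p = 0.0917) compared to DU145KO+vector, and their part in these counts was not tested.

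A gene was called DE when its fold change was also above 2. By this rule 5 members (11.6%) were DE between DU145KO+α2 and DU145KO+vector, against 2.21% of all genes. COL9A2 and SVEP1 were higher (1.38% of all genes were), and COL13A1, COL17A1 and VWA2 were lower (0.821% of all genes were). The replicates with the same number deviated together, and with the replicate number as a block 23 members passed the adjusted p (26.5% of all genes), 8 of them higher (12.9% of all genes) and 15 lower (13.7% of all genes), and 6 were DE (2.68% of all genes), with COL21A1 added. The count of 13 fell to 8 without replicate 1 or replicate 3 of DU145KO+α2 or without replicate 3 of DU145KO+vector.

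Compared to DU145KO, the line without a vector, 9 members (20.9%) passed the adjusted p in DU145KO+α2, where 8.17% of all genes did. FBN1, LAMA1, NID1 and SVEP1 were higher (9.3% of the members, 3.09% of all genes), and AGRN, COL17A1, COL6A1, LAMB3 and VWA2 were lower (11.6% of the members, 5.08% of all genes). SVEP1 and VWA2 were the 2 DE members, against 2.1% of all genes DE in either direction, 0.428% higher and 1.67% lower. Without SVEP1 and VWA2, 7 of 41 members passed the adjusted p and 0 were DE. With the replicate block, 17 members passed (22.3% of all genes), 6 of them higher (9.93% of all genes) and 11 lower (12.4% of all genes), and 4 were DE (2.56% of all genes), with COL21A1 and COL4A5 added, and without replicate 4 of DU145KO 5 members were DE. This comparison and the one with the vector line share the 4 DU145KO+α2 samples, so their values are given side by side and not as independent results.

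Between the α2 negative lines DU145KO+vector and DU145KO, 2 members passed the adjusted p, COL13A1 and COL17A1, both higher with the vector (4.65% of the members, against 2.34% of all genes in either direction and 0.496% higher). None of the members was DE by edgeR (0, against 0.835% of all genes), 1 member was DE by DESeq2 and 1 by voom with limma (COL4A5 in both), and 11 members (25.6%) had an unadjusted p below 0.05, where 15% of all genes did. In the comparisons of DU145KO+α2 with DU145KO+vector and with DU145KO this count was 20 (46.5%, against 24.9% of all genes) and 17 (39.5%, against 21.4%). With the replicate block 10 members passed the adjusted p (13.4% of all genes), 6 higher (5.59% of all genes) and 4 lower (7.85% of all genes), and COL4A5 was DE (1.48% of all genes). The count of 2 ranged from 0 to 5 when 1 sample was left out. It was 0 without replicate 2 of DU145KO or without replicate 2, 3 or 4 of DU145KO+vector, 1 without replicate 1 of DU145KO or replicate 1 or 4 of DU145KO+α2, and 5 without replicate 4 of DU145KO. The number of DE members was 2 without replicate 4 of DU145KO (COL4A3 and COL4A4) and 1 without replicate 1 of DU145KO+vector (COL4A5).

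**Figure D2:**
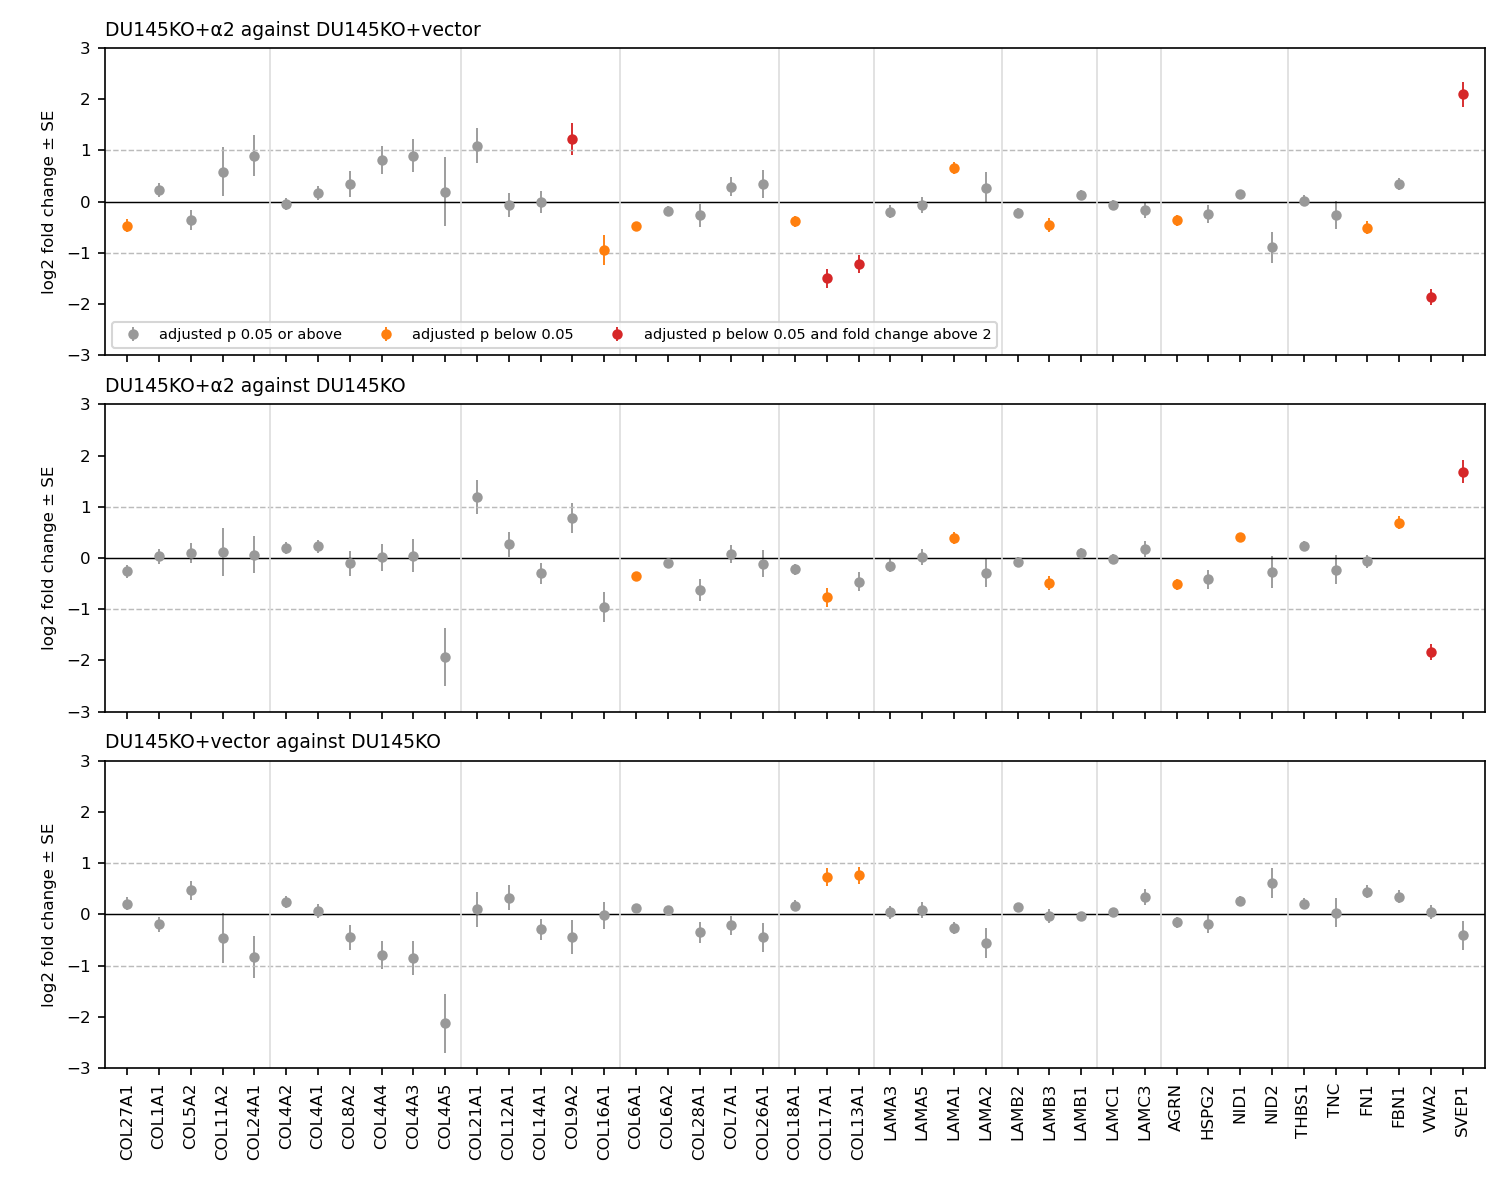
Log2 fold change with its standard error (edgeR) of the 43 tested members in the 3 comparisons, ordered as in the plot of levels. Dashed lines mark a fold change of 2, and colours mark an adjusted p below 0.05 without and with a fold change above 2. In DU145KO+α2 against DU145KO+vector, 10 members lie below 0 and 3 above 0 among the 13 past the adjusted p.

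Among the 9 tested laminin chains LAMB3 fell and LAMA1 rose in DU145KO+α2 in both comparisons, and the other 7 did not pass. LAMB3, the β chain of the laminin of epithelial hemidesmosomes, was lower, but with 1 sample apart. It had 182, 281, 188 and 196 CPM in the DU145KO+α2 samples, given here and below in the order of the replicate numbers, 260, 327, 300.1 and 276 in DU145KO+vector and 287, 357, 299 and 252 in DU145KO. Replicate 2 of DU145KO+α2 reached into the range of the other lines, and replicate 2 was also the highest sample of both α2 negative lines. The log2 fold changes were -0.46 ± 0.14 (standard error, SE, adjusted p = 0.0411, edgeR) compared to DU145KO+vector and -0.49 ± 0.14 (adjusted p = 0.0373) compared to DU145KO. Blocking on the replicate number gave an adjusted p of 1.75e-05 and 1.21e-05, and over all alternatives it ranged up to 0.123 and 0.120. The first call was lost without replicate 1 or 3 of DU145KO, 1, 3 or 4 of DU145KO+α2 or 2, 3 or 4 of DU145KO+vector (4 of 12 fits kept it). The second was lost without replicate 1, 2 or 3 of DU145KO, 1, 3 or 4 of DU145KO+α2 or 3 of DU145KO+vector (5 of 12 kept it). Both calls were also lost with no filter on low counts, and the second with the compared groups only.

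LAMA3, the α chain of the same laminin, had 1048, 1341, 1459 and 1029 CPM in DU145KO+α2, 1246, 1435, 1595 and 1305 in DU145KO+vector and 1196, 1241, 1558 and 1417 in DU145KO. These groups overlapped, and the log2 fold changes of -0.19 (adjusted p = 0.378) and -0.15 (adjusted p = 0.559) did not pass. With the block the comparison to the vector line passed (-0.20, adjusted p = 0.0358), and this was the only one of 20 alternatives that did (largest adjusted p 0.656). In RPKM, LAMA3 stood at 109 ± 19 (SD, n = 4) in DU145KO+α2.

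The windows upstream of the start sites of LAMA3 and LAMB3 are shown because both chains belong to the same trimer, of which LAMB3 was lower and LAMA3 did not pass. Each holds the 250 bases before the start site from the RefSeq promoter table (GRCh38.p14), read 5′ to 3′ on the gene's strand, with matches to the AP-1 motif TGANTCA and to the GC box (GGGCGG, or CCGCCC on the other strand) in capitals.
LAMA3, chr18:23872770-23873019, plus strand: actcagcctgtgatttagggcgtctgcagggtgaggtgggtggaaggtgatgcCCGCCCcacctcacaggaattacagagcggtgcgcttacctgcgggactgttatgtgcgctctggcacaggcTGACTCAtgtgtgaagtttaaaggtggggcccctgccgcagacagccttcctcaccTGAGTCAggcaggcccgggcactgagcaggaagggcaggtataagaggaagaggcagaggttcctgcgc
LAMB3, chr1:209652426-209652675, minus strand: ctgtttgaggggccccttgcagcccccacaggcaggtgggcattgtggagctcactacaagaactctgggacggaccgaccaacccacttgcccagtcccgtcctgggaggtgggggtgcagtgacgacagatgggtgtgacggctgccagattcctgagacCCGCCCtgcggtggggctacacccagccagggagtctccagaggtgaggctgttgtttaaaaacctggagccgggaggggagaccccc
LAMA3 has 2 AP-1 matches, beginning 125 and 69 bases before the start site, and was the only one of the 51 members with a table entry that held one, while 6.6% of all 27305 promoter windows did. The start site used by the table lies inside the longer span annotated for LAMA3 (chr18:23689453-23956222), so it belongs to a shorter transcript. LAMB3 has a GC box beginning 88 bases before its start, a motif in 31 of the 51 member windows and 42.3% of all windows. A match is a description of the letters and not of binding.

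LAMA1, the α chain of the laminin typical of early basement membranes, was the laminin chain that rose. It had 86.7, 125, 106 and 95.4 CPM in DU145KO+α2, 66.7, 76.5, 65.9 and 53.8 in DU145KO+vector and 82.0, 82.8, 77.5 and 74.2 in DU145KO. The DU145KO+α2 samples were above all others. On the log2 scale the fold change was 0.65 ± 0.11 (SE, adjusted p = 0.00136) compared to DU145KO+vector and 0.39 ± 0.11 (adjusted p = 0.0444) compared to DU145KO. The latter was lost by voom with limma and without any 1 replicate of DU145KO, replicate 2, 3 or 4 of DU145KO+α2 or replicate 3 of DU145KO+vector (adjusted p up to 0.131). With the block, LAMA1 was also lower in DU145KO+vector than in DU145KO (-0.27, adjusted p = 0.0161, up to 0.556 over the alternatives), where the fit without the block gave an adjusted p of 0.273.

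The chains of the widespread epithelial laminins, LAMA5, LAMB1, LAMB2 and LAMC1, did not pass in any of the 3 comparisons. Their log2 fold changes compared to DU145KO+vector were -0.07 for LAMA5, 0.13 for LAMB1, -0.22 for LAMB2 and -0.06 for LAMC1. LAMB2 passed only under the block (adjusted p = 0.00931, up to 0.355 over the alternatives). LAMC3 and LAMA2 were low, at 1.06 and 0.135 RPKM, and did not pass either.

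**Figure D3:**
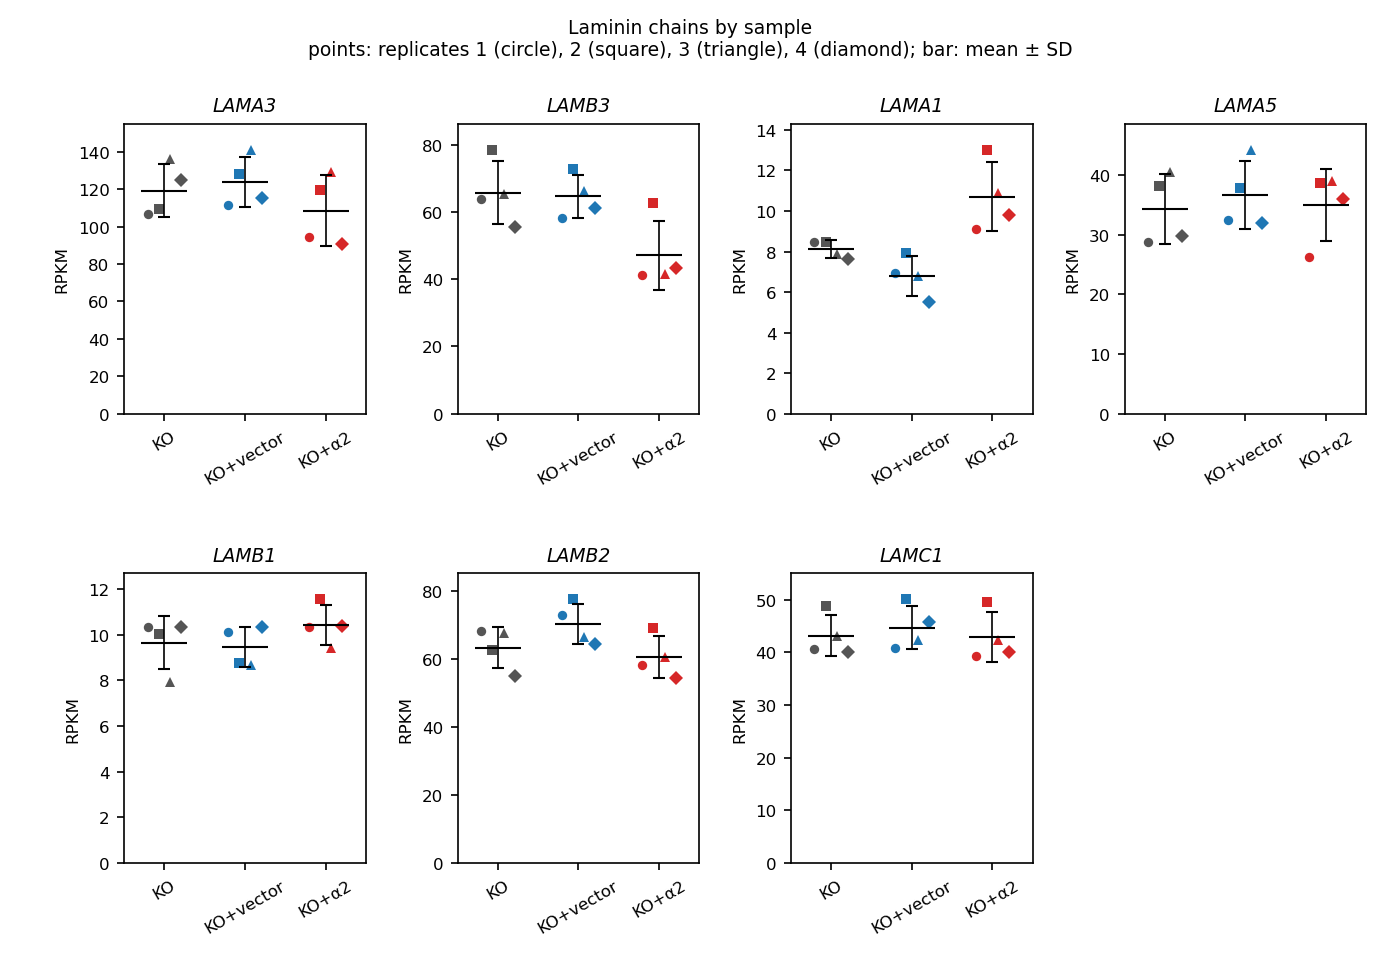
RPKM of 7 laminin chains by sample in DU145KO, DU145KO+vector and DU145KO+α2, with points for the 4 replicates of each line and bars for mean and SD. The DU145KO+α2 points of LAMA1 lie above all points of the other lines, and those of LAMA5, LAMB1, LAMB2 and LAMC1 overlap with them.

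Of the 6 transmembrane collagens and their secreted relatives, 3 were tested, and these fell in DU145KO+α2 compared to the vector line, where 5.95% of all genes did: COL17A1 and COL13A1, which cross the membrane, and the secreted COL18A1. COL17A1 codes for the collagen of hemidesmosomes that spans the cell membrane. It had 3.60, 5.55, 3.31 and 4.58 CPM in DU145KO+α2, 12.3, 10.6, 12.5 and 13.0 in DU145KO+vector and 8.80, 6.54, 5.10 and 8.78 in DU145KO. DU145KO+vector lay above both other lines without overlap, whereas DU145KO+α2 and DU145KO overlapped. Its log2 fold change was -1.5 ± 0.19 (SE, adjusted p = 0.000119) compared to DU145KO+vector and -0.77 ± 0.19 (adjusted p = 0.0195) compared to DU145KO, and DU145KO+vector was higher than DU145KO by 0.73 ± 0.18 (adjusted p = 0.0455). The call against DU145KO was lost without replicate 1 or 4 of DU145KO or 1 or 3 of DU145KO+α2 (adjusted p up to 0.0703). The call between the α2 negative lines was lost without replicate 2 or 3 of DU145KO, 1 or 4 of DU145KO+α2 or any 1 replicate of DU145KO+vector (adjusted p up to 0.144). That call was also lost with at least 10 counts in every sample and with the compared groups only.

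COL13A1, a transmembrane collagen of cell adhesion sites, had the same order of the lines. It had 1.86, 3.15, 2.36 and 3.37 CPM in DU145KO+α2, 5.87, 6.03, 6.21 and 7.09 in DU145KO+vector and 3.31, 3.85, 3.93 and 3.75 in DU145KO. Again only the vector line stood apart from both others. This gave a log2 fold change of -1.22 ± 0.17 (SE, adjusted p = 0.000296) compared to DU145KO+vector and 0.76 ± 0.17 (adjusted p = 0.0269) between DU145KO+vector and DU145KO, and the latter call was lost without replicate 1 or 2 of DU145KO or 2, 3 or 4 of DU145KO+vector (adjusted p up to 0.0926). Compared to DU145KO the value in DU145KO+α2 was -0.46 ± 0.18 (adjusted p = 0.141), and -0.47 with the block (adjusted p = 0.0432, up to 0.325 over the alternatives). Because COL17A1 and COL13A1 also differed between the α2 negative lines, the size of their change in DU145KO+α2 depended on which of these lines it was compared with.

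The upstream windows of COL17A1 and COL13A1 are shown because these genes had the same order of the lines. Capitals mark the letters TATAAA (or TTTATA on the other strand), the core of the TATA box.
COL17A1, chr10:104085881-104086130, minus strand: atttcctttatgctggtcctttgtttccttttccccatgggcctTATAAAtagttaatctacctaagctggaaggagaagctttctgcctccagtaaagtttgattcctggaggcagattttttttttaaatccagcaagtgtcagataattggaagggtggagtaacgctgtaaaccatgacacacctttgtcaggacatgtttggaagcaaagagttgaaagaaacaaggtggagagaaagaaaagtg
COL13A1, chr10:69801656-69801905, plus strand: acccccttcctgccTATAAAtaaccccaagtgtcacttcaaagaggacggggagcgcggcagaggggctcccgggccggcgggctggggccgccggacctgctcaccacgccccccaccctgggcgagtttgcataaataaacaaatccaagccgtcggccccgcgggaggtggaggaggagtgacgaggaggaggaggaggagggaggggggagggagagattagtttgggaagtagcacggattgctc
Each holds 1 match, beginning 206 bases before the start site in COL17A1 and 236 bases before it in COL13A1. These letters occur in 6 of the 51 member windows and in 11.1% of all windows. Neither window holds an AP-1 match or a GC box.

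COL18A1, a basement membrane collagen that also carries endostatin, was higher by far than the other genes of this group, at 38.6 RPKM. It had 242, 257, 209 and 203 CPM in DU145KO+α2, 320, 325, 299 and 246 in DU145KO+vector and 299, 239, 283 and 240 in DU145KO, and the groups overlapped. The log2 fold change compared to DU145KO+vector was -0.39 ± 0.11 (SE, adjusted p = 0.0262), lost without replicate 3 or 4 of DU145KO+α2 or 1, 2 or 3 of DU145KO+vector (adjusted p up to 0.0908). Compared to DU145KO it was -0.22 (adjusted p = 0.251), and it passed only with the block (adjusted p = 0.0263, up to 0.521 over the alternatives). Exons of SLC19A1 on the opposite strand overlap 18.5% of the exon bases of COL18A1, and the sources used here do not say whether counting used the strand.

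Collagen IV, the network collagen of basement membranes, was counted mainly as COL4A2 (7.66 RPKM) and COL4A1 (3.12 RPKM), the pair that makes its common trimer. Neither passed in any comparison, with log2 fold changes of -0.05 and 0.16 compared to DU145KO+vector and of 0.20 and 0.22 compared to DU145KO. COL4A2 passed between the α2 negative lines only with the block (0.23, adjusted p = 0.0481, up to 0.716 over the alternatives).

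COL4A3 and COL4A4, chains of a trimer known from kidney and lung basement membranes, varied together from sample to sample in the α2 negative lines. COL4A3 had 5.69, 7.09, 10.02 and 2.58 CPM in replicates 1 to 4 of DU145KO, and COL4A4 had 8.14, 11.5, 16.2 and 5.04 CPM in the same samples. In DU145KO+vector COL4A3 had 3.94, 3.09, 4.72 and 2.13 CPM and COL4A4 had 5.10, 6.18, 7.54 and 4.62 CPM. In DU145KO+α2 they had 5.84, 6.60, 7.86 and 5.86 CPM and 9.50, 9.89, 10.7 and 11.1 CPM. For both genes replicate 3 was the highest and replicate 4 the lowest in each α2 negative line, and DU145KO+α2 lay above DU145KO+vector without overlap. Within DU145KO+α2 the highest was replicate 3 for COL4A3 and replicate 4 for COL4A4. The log2 fold changes between these lines were 0.90 ± 0.33 (SE, adjusted p = 0.103) for COL4A3 and 0.81 ± 0.28 (adjusted p = 0.0777) for COL4A4. They passed with the block (adjusted p = 0.00195 and 0.0228) and ranged up to 0.224 and 0.185 over the alternatives. Between DU145KO+vector and DU145KO they were -0.85 (adjusted p = 0.235) and -0.80 (adjusted p = 0.180), with block values of 0.0111 and 0.0581 for the adjusted p and up to 0.485 and 0.379 over the alternatives.

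COL4A3 and COL4A4 lie head to head on chromosome 2, and their upstream windows are shown because they share 82 bases. The start sites used by the table are 419 bases apart. That of COL4A4 lies inside the longer span annotated for it (chr2:227002714-227164453), so it belongs to a shorter transcript. Most of the COL4A4 window therefore lies within that span. Capitals mark GC boxes.
COL4A3, chr2:227164374-227164623, plus strand: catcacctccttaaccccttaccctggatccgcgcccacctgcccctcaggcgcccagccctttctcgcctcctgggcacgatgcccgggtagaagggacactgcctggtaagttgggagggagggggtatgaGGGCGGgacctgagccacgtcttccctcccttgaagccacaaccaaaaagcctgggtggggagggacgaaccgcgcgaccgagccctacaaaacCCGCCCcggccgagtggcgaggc
COL4A4, chr2:227164206-227164455, minus strand: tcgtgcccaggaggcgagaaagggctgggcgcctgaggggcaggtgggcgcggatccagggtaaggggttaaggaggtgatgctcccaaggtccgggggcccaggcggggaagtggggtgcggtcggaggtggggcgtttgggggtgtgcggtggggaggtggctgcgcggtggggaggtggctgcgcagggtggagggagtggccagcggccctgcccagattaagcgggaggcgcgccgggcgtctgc
The window of COL4A3 has 2 GC boxes, beginning 117 and 23 bases before its start, and that of COL4A4 has none of the motifs searched. The TEAD motif (GGAATG, or CATTCC on the other strand), found in 5 of the 51 member windows and 11.9% of all windows, is in neither of them.

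COL4A5, the third chain of that trimer, was lower in both transfected lines than in DU145KO, and the differences passed only in some fits. It had 4.17, 2.44, 3.44 and 1.93 CPM in DU145KO, 1.61, 0.646, 0.345 and 0 in DU145KO+vector and 1.30, 0.550, 0.945 and 0.318 in DU145KO+α2. Every DU145KO sample was above every sample of the transfected lines. Replicate 4 of DU145KO+vector had 0 counts, below its limit of 0.210 CPM, and the 8 transfected samples had between 0 and 29 counts. The log2 fold changes were -2.13 ± 0.58 (SE, adjusted p = 0.0797) in DU145KO+vector and -1.94 ± 0.56 (adjusted p = 0.0523) in DU145KO+α2, both compared to DU145KO. With the block the adjusted p was 0.000332 and 0.000281, and over the 19 alternatives 4 and 7 passed, with the largest adjusted p at 0.223 and 0.136. Both comparisons use the same DU145KO samples. Its neighbour COL4A6 was never above 3 counts.

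**Figure D4:**
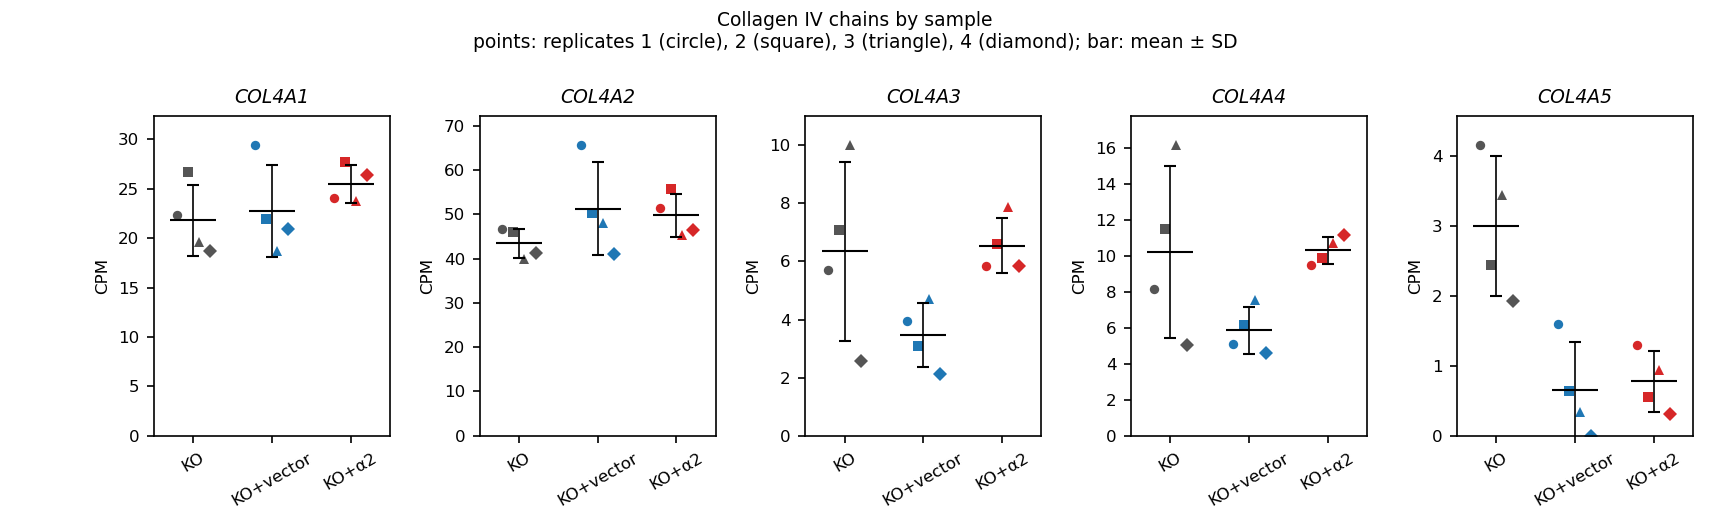
CPM of 5 collagen IV chains by sample in DU145KO, DU145KO+vector and DU145KO+α2, with points for the 4 replicates of each line and bars for mean and SD. COL4A5 is at 1.93 CPM or more in the DU145KO samples and at most 1.61 CPM in the others, and COL4A3 and COL4A4 share their highest and lowest replicates within each α2 negative line.

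Among the genes of the proteins that link the basement membrane networks, AGRN (agrin) fell in DU145KO+α2. Of the nidogens, NID1 rose compared to DU145KO and NID2 did not. AGRN, a heparan sulfate proteoglycan that binds laminin, had 319, 379, 342 and 331.9 CPM in DU145KO+α2, 457, 491, 457 and 359 in DU145KO+vector and 542, 479, 528 and 408 in DU145KO. It lay below all DU145KO samples (log2 fold change -0.51 ± 0.11, adjusted p = 0.00615). Compared to DU145KO+vector the value was -0.36 ± 0.11 (adjusted p = 0.0359), with 1 vector sample inside the range of DU145KO+α2. That call was lost without replicate 1, 3 or 4 of DU145KO+α2 or 1, 2 or 3 of DU145KO+vector (adjusted p up to 0.117).

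NID1, which bridges laminin and collagen IV, had 37.8, 40.6, 30.7 and 37.9 CPM in DU145KO+α2, 33.1, 33.8, 30.9 and 35.2 in DU145KO+vector and 27.9, 29.4, 25.8 and 27.8 in DU145KO. DU145KO was the lowest line without overlap. The fitted log2 fold change was 0.41 ± 0.09 (SE, adjusted p = 0.00824) in DU145KO+α2 compared to DU145KO, 0.14 (adjusted p = 0.340) compared to DU145KO+vector, and 0.26 (adjusted p = 0.150) between the α2 negative lines. The last passed with the block (adjusted p = 0.0110, up to 0.331 over the alternatives). HSPG2, the gene of perlecan, stood at 129 ± 28 CPM in DU145KO+α2, 153 ± 27 in DU145KO+vector and 173 ± 34 in DU145KO (SD, n = 4) and passed only with the block: -0.24 (adjusted p = 0.0223, up to 0.738) compared to DU145KO+vector and -0.42 (adjusted p = 0.000542, up to 0.406) compared to DU145KO. Exons of LDLRAD2 on the opposite strand overlap 11.7% of the exon bases of HSPG2, and among the other tested members besides COL18A1 such a share was at most 4.89% (THBS1). NID2 was low, at 0.217 RPKM, with a log2 fold change of -0.89 compared to DU145KO+vector (adjusted p = 0.0634, 0.0197 with the block, up to 0.208 over the alternatives).

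Collagen VI fell in 1 of its 2 measured chains. COL6A1, at 55.1 RPKM the highest collagen chain, had 186, 204, 194 and 183 CPM in DU145KO+α2, 246, 276, 284 and 258 in DU145KO+vector and 239, 252, 257 and 226 in DU145KO. The DU145KO+α2 samples lay below all others. The log2 fold change was -0.47 ± 0.07 (SE, adjusted p = 0.000447) compared to DU145KO+vector and -0.34 ± 0.07 (adjusted p = 0.00573) compared to DU145KO. Genes next to COL6A1 on chromosome 21 had a median of -0.12 in the latter comparison, and the value of COL6A1 relative to them was -0.22. COL6A2, on the same chromosome, had log2 fold changes of -0.18 (adjusted p = 0.230) and -0.10 (adjusted p = 0.582), and it passed only with the block in the first (adjusted p = 0.0204, up to 0.474). Whether COL6A1 and COL6A2 differed in their response was not tested.

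Collagens that sit on the surface of fibrils (the FACIT group) moved in both directions. COL9A2, a chain of collagen IX of cartilage, had 3.48, 2.30, 1.65 and 1.72 CPM in DU145KO+α2, 1.11, 1.22, 0.460 and 1.17 in DU145KO+vector and 1.59, 1.41, 0.922 and 1.41 in DU145KO, from 8 to 56 counts per sample. The DU145KO+α2 samples lay above all others, narrowly so for replicates 3 and 4. On the log2 scale the fold change was 1.22 ± 0.31 (SE, adjusted p = 0.0180) compared to DU145KO+vector, lost without replicate 1 of DU145KO+α2 (0.95 on the log2 scale, the lowest value) or without replicate 3 of DU145KO+vector. Compared to DU145KO it was 0.78 ± 0.30 (adjusted p = 0.136), 0.76 with the block (adjusted p = 0.0177, up to 0.372 over the alternatives). The other collagen IX chains, COL9A1 and COL9A3, were too low to test.

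COL21A1, a FACIT collagen and with 6.47 RPKM the highest of this group, had 41.4, 34.2, 37.1 and 58.1 CPM in DU145KO+α2. It had 24.6, 12.1, 14.9 and 28.2 CPM in DU145KO+vector and 20.2, 15.8, 10.2 and 28.5 CPM in DU145KO. The DU145KO+α2 samples were above all others, and replicate 4 was the highest in every line. The log2 fold changes of 1.09 ± 0.34 (SE, adjusted p = 0.0628) and 1.19 ± 0.34 (adjusted p = 0.0581) missed the threshold, and with the block they were 1.13 (adjusted p = 0.000293) and 1.23 (adjusted p = 0.000213). DESeq2 and voom with limma passed both, and over the 20 alternatives 7 and 5 passed, with adjusted p up to 0.159 and 0.147.

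COL16A1, another fibril-associated collagen, was low, with 0.497, 0.650, 0.709 and 0.891 CPM in DU145KO+α2, 1.66, 1.08, 1.15 and 1.38 in DU145KO+vector and 1.12, 1.65, 1.72 and 0.878 in DU145KO. It lay below DU145KO+vector without overlap (log2 fold change -0.94 ± 0.29, adjusted p = 0.0459). Only 3 of 12 fits with 1 sample left out kept the call, those without replicate 3 or 4 of DU145KO or replicate 4 of DU145KO+α2. The DESeq2 Wald test and the fit with no filter on low counts lost it. Compared to DU145KO the value was -0.96 (adjusted p = 0.0530, 0.0259 with the block, up to 0.156). COL12A1 and COL14A1, at 2.83 and 1.76 RPKM, did not pass in any comparison.

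**Figure D5:**
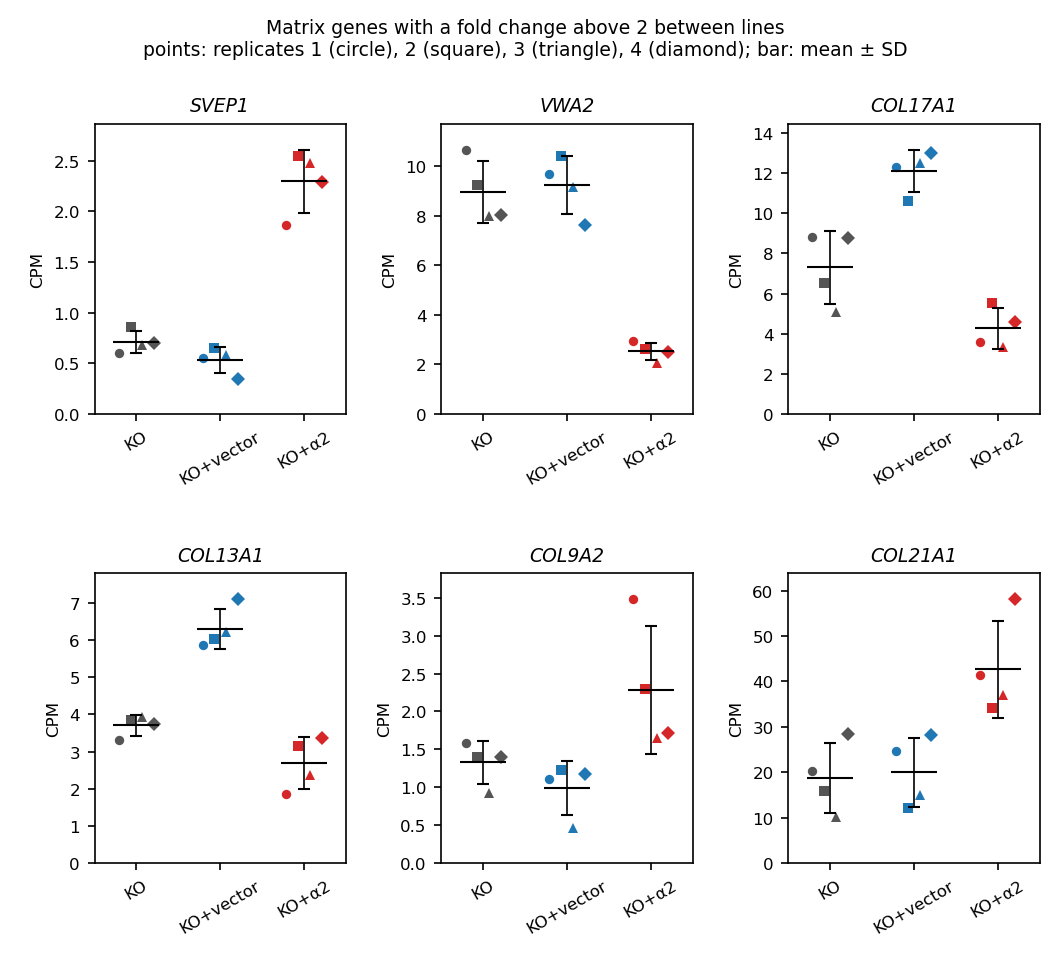
CPM by sample of the 6 members with a difference of more than 2-fold between DU145KO+α2 and the vector line, with points for the 4 replicates of each line and bars for mean and SD. COL21A1 did not pass the adjusted p without the replicate block (0.0628), and COL17A1 and COL13A1 are highest in DU145KO+vector.

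Of the 5 tested fibrillar collagens, COL27A1 was the only one that passed. It had 18.0, 20.4, 19.1 and 19.9 CPM in DU145KO+α2, 22.8, 25.3, 32.1 and 27.2 in DU145KO+vector and 21.0, 21.2, 20.4 and 30.04 in DU145KO. The log2 fold change compared to DU145KO+vector was -0.47 ± 0.13 (SE, adjusted p = 0.0242), and the genes around it on chromosome 9 had a median of -0.27, which leaves -0.21 relative to them. The call was lost without replicate 1 or 3 of DU145KO+α2 or 3 or 4 of DU145KO+vector (adjusted p up to 0.0942). COL1A1 had 10.7 ± 0.78 CPM in DU145KO+α2, 9.06 ± 1.8 in DU145KO+vector and 10.4 ± 1.3 in DU145KO (SD, n = 4), differences within the spread between replicates. COL11A2 and COL24A1 passed only with the block, compared to DU145KO+vector (adjusted p = 0.00775 and 0.0401, up to 0.797 and 0.397 over the alternatives), and COL5A2 only between the α2 negative lines (0.0260, up to 0.551). COL7A1, the anchoring fibril collagen that ties basement membrane to stroma, stood at 0.414 RPKM and did not pass, and COL26A1 did not pass either. COL8A2 passed only with the block between the α2 negative lines (adjusted p = 0.0270, up to 0.716), and COL28A1 only with the block or in 2 other alternatives compared to DU145KO (log2 fold change -0.62, adjusted p = 0.0906, 0.0112 with the block, up to 0.233).

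Among the members past the adjusted p, the largest changes were those of 2 glycoproteins with von Willebrand factor A domains. SVEP1, a large adhesion protein that binds another integrin, had 1.86, 2.55, 2.48 and 2.29 CPM in DU145KO+α2, 0.554, 0.646, 0.575 and 0.344 in DU145KO+vector and 0.595, 0.855, 0.676 and 0.703 in DU145KO. These are 30 to 51 counts per DU145KO+α2 sample and 5 to 14 counts in the α2 negative samples. The groups did not overlap. Its log2 fold change was 2.1 ± 0.24 (SE, adjusted p = 6.81e-05) compared to DU145KO+vector and 1.69 ± 0.23 (adjusted p = 0.000282) compared to DU145KO, with -0.41 ± 0.29 (adjusted p = 0.602) between the α2 negative lines. Even in DU145KO+α2 its level was only 0.186 ± 0.024 RPKM (SD, n = 4).

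VWA2, a basement membrane protein also known as AMACO, went the other way. It had 2.92, 2.60, 2.07 and 2.48 CPM in DU145KO+α2, 9.70, 10.4, 9.15 and 7.64 in DU145KO+vector and 10.7, 9.23, 7.99 and 8.02 in DU145KO. The groups with and without α2 did not overlap, and the α2 negative lines did. This gave a log2 fold change of -1.87 ± 0.16 (SE, adjusted p = 3.43e-06) and -1.83 ± 0.16 (adjusted p = 3.66e-06), with 0.04 between the α2 negative lines. Both genes kept their calls in the 12 fits with 1 sample left out.

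FN1, the gene of fibronectin, stood out in the vector line. It had 63.4, 89.2, 68.9 and 60.0 CPM in DU145KO+α2, 98.1, 108, 103 and 92.2 in DU145KO+vector and 60.7, 68.5, 85.8 and 79.2 in DU145KO. DU145KO+vector was above both other lines, which overlapped. The fitted log2 fold change was -0.51 ± 0.12 (SE, adjusted p = 0.0131) compared to DU145KO+vector, -0.06 (adjusted p = 0.839) compared to DU145KO and 0.45 ± 0.12 (adjusted p = 0.0749) between the α2 negative lines. The last passed with the block (adjusted p = 0.0355, up to 0.213 over the alternatives).

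FBN1, the main fibrillin of elastic microfibrils, had 80.3, 81.1, 102 and 60.8 CPM in DU145KO+α2, 70.0, 68.8, 53.3 and 63.5 in DU145KO+vector and 53.6, 46.4, 51.2 and 50.1 in DU145KO. DU145KO+α2 was above DU145KO without overlap and overlapped with DU145KO+vector. The log2 fold change was 0.69 ± 0.13 (SE, adjusted p = 0.00322) compared to DU145KO and 0.34 (adjusted p = 0.0968) compared to DU145KO+vector. THBS1 and TNC, whose products modulate adhesion, did not pass in any of the 3 comparisons without the block or with it. THBS1 had 356 ± 57 CPM in DU145KO+α2, 352 ± 29 in DU145KO+vector and 304 ± 15 in DU145KO (SD, n = 4). TNC ranged from 57.5 to 142 CPM over the 12 samples, with replicate 1 the lowest in every line.

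The genes that process collagen were read from a list of 29 in the table, of which 26 were tested. Compared to DU145KO+vector, 5 were higher and 1 was lower in DU145KO+α2, against 5.96% and 5.95% of all genes. LOX, the lysyl oxidase that starts the cross-linking of collagen, was DE (log2 fold change 1.16 ± 0.26, adjusted p = 0.00874). P4HA1, a prolyl hydroxylase subunit (0.79), COLGALT2, a collagen galactosyltransferase (0.60), LOXL2, a relative of LOX (0.54), and BMP1, a procollagen proteinase (0.49), were the other higher genes. P3H3, of the collagen prolyl hydroxylases, was lower (log2 fold change -0.97, adjusted p = 6.97e-06). Compared to DU145KO, 5 were higher (P4HA1, P3H2, SERPINH1, COLGALT2 and LOX) and 3 lower (P4HA2, P3H3 and PPIB), against 3.09% and 5.08% of all genes, and LOX had 0.99 ± 0.25 (adjusted p = 0.0256). With the block LOX was DE compared to DU145KO too. LOX was measured at 13.1, 9.74, 9.63 and 14.5 CPM in DU145KO+α2, 5.82, 5.67, 5.46 and 3.995 in DU145KO+vector and 8.20, 8.00, 3.44 and 3.98 in DU145KO. Between DU145KO+vector and DU145KO, P3H3 was higher (0.67) and LOXL2 lower (-0.39), against 0.496% and 1.84% of all genes. With the block 14 genes of this list passed compared to DU145KO+vector (9 higher, 5 lower), 17 compared to DU145KO (8 higher, 9 lower) and 8 between the α2 negative lines (2 higher, 6 lower), where 26.5%, 22.3% and 13.4% of all genes did.

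Of 54 other matrix glycoproteins, 34 were tested. Compared to DU145KO+vector 4 were higher (FBLN1, EFEMP2, LTBP1 and LTBP2) and 4 lower (CTGF, EFEMP1, MATN2 and NPNT) in DU145KO+α2, against 5.96% and 5.95% of all genes. Compared to DU145KO 4 were higher (FBLN1, LTBP1, LTBP2 and NTN4) and 5 lower (VTN, SMOC1, TINAGL1, MFAP2 and NPNT), against 3.09% and 5.08%. NPNT, the gene of nephronectin, a basement membrane ligand of another integrin, had 2.11, 3.05, 0.945 and 1.78 CPM in DU145KO+α2, 8.42, 6.32, 5.12 and 2.69 in DU145KO+vector and 17.2, 9.78, 13.5 and 16.6 in DU145KO. It was DE in all 3 comparisons, with -1.5 ± 0.37 (SE, adjusted p = 0.0176), -2.83 ± 0.35 (adjusted p = 0.000336) and -1.33 ± 0.32 (adjusted p = 0.0495). MATN2, a matrilin, was DE compared to DU145KO+vector (-1.08, adjusted p = 0.000155). Its mean was 9.98 CPM in DU145KO+α2, 21.1 in DU145KO+vector and 13.5 in DU145KO. Every DU145KO+vector sample (17.2 CPM or more) was above every sample of the other lines (at most 14.49 CPM). EMILIN1 did not pass compared to DU145KO+vector (1.01, adjusted p = 0.118), but was DE with the block (1.02, adjusted p = 0.0408). VTN (vitronectin), SMOC1 (a calcium-binding basement membrane protein) and MFAP2 (a microfibril protein) were DE and lower in DU145KO+α2 than in DU145KO, by -1.45, -2.32 and -2.09 on the log2 scale. VTN and SMOC1 were also DE and lower in DU145KO+vector than in DU145KO (-1.96 and -1.74). Both rest on low counts, with 4 to 10 for VTN and 5 to 14 for SMOC1 in the samples of the transfected lines. In DU145KO they had 13 to 35 and 16 to 55 counts. MFAP2 had a mean of 3.20 CPM in DU145KO, 1.27 in DU145KO+vector and 0.744 in DU145KO+α2. With the block it was also DE and lower in DU145KO+vector than in DU145KO. Between these α2 negative lines 2 genes of the list were higher and 4 lower, against 0.496% and 1.84% of all genes. With the block 14, 17 and 13 of them passed in the 3 comparisons (8 higher and 6 lower, 6 higher and 11 lower, 4 higher and 9 lower), where 26.5%, 22.3% and 13.4% of all genes did.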

How the data were processed

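Spheroid RNA of 3 lines with 4 samples each was sequenced from stranded single-end mRNA libraries. The authors aligned the reads to hg38 with TopHat2 2.1.0, counted uniquely aligned reads per gene with Subread 1.5.0, and deposited raw read counts and RPKM values (submitters' processing notes and the study's methods). Whether counting used the strand is not given in the sources used here. The tests used the deposited counts. The RPKM values, normalized by TMM by the authors, were used only to compare levels between genes. The members and gene lists were chosen with earlier results of these data known.

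In R 4.3.3, edgeR 4.0.16 (filterByExpr with a minimum count of 10, TMM, robust quasi-likelihood F-test, two-sided) was fitted to all 12 samples with a factor for the line. Of the genes, 14732 were tested, with Benjamini-Hochberg adjustment over all of them. DE meant an adjusted p below 0.05 and a fold change above 2. Library sizes were 13948734 to 19988111 counts, and limits at 3 counts cover counting error only, as the reads carry no molecular identifiers. Over genes, the counts of no 2 replicates agreed within sampling noise (chi-square divided by its degrees of freedom, 6.98 to 23.7 in 18 pairs).

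The genes named are ITGA2, every member past the adjusted p in any comparison, the 15 highest members by RPKM, the chains of the laminins and collagen IV pairs described, and DE genes of the 2 lists of other matrix genes. Other genes were named after their values were seen. Same-numbered samples deviated together: the correlation of their deviations from the line means over genes was 0.135 to 0.554 in 12 pairs (mean 0.378). In 36 pairs with different numbers it was -0.29 to 0.149 (mean -0.13), so the ranges overlapped slightly. The pairing rests on the replicate numbers in the labels, every same-numbered pair being above 0.1, a value that the highest pair with different numbers also passed. Values with the replicate number as a block are given where they change a call.

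Alternatives were the size factors of DESeq2 1.42.0, library size alone, the DESeq2 Wald test, voom with limma 3.58.1, no filter on low counts, at least 10 counts in every sample, the compared groups only, the replicate block, a fold change above 2 alone, subtraction of the median of up to 25 tested genes on each side, and each sample left out in turn. On simulated counts for DU145KO+α2 against DU145KO+vector (14686 genes), edgeR recovered 99.0% of 198 changed genes with 1 false call among 14488. How recovery depends on the size of the fold change or on the number of counts was not tested. Spans and exon overlaps of the members come from GENCODE on hg38, and the positions used to find neighbouring genes from RefSeq. Upstream windows come from the RefSeq promoter table (GRCh38.p14), in which 51 of the 67 members matched. A further gene matched by the symbol rule is not reported here and was left out of the members' counts.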

Additional observations from a re-analysis of the deposited data

Results flagged for a closer look

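Within a line, 6 of the 138 groups of 4 samples examined had 1 sample far from the other 3, by the gap to its nearest neighbour as a share of the whole range. Chance flags about 1 in 20 groups, here 6.9. In DU145KO, COL27A1 had 30.04 CPM in replicate 4 against 20.4 to 21.2 in the others (share 0.912), and LAMB1 had 47.3 CPM in replicate 3 against 59.4 to 61.0 (share 0.886). In DU145KO+α2, LAMB3 had 281 CPM in replicate 2 against 182 to 196 (share 0.858), and COL28A1 had 3.00 CPM in replicate 2 against 3.48 to 3.56 (share 0.846). In DU145KO+vector, TNC had 78.5 CPM in replicate 1 against 117.5 to 120.1 (share 0.936), and COL9A2 had 0.460 CPM in replicate 3 against 1.11 to 1.22 (share 0.852). Of these genes, LAMB3, COL9A2 and COL27A1 lost a call when a sample was left out, as described above.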

How the results depend on the processing

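No direction of a called member reversed under any alternative. With the replicate block the members past the adjusted p rose from 13 to 23 (DU145KO+α2 against DU145KO+vector), from 9 to 17 (against DU145KO) and from 2 to 10 (DU145KO+vector against DU145KO), and DE members from 2 to 4 and from 0 to 1 in the last 2 of these, while no call was lost. With at least 10 counts in every sample, fewer genes were tested and SVEP1 was among those removed: DE members fell from 5 to 3 and from 2 to 1, and members past the adjusted p between the α2 negative lines from 2 to 1. The DESeq2 Wald test gave 4 DE members against DU145KO. For the α2 negative lines it gave 1 DE member and 4 past the adjusted p. Voom with limma gave 1 DE member there, the compared groups alone gave 1 past the adjusted p, and a fold change above 2 alone gave 1 there and 4 against DU145KO. For the other changes the cause was not tested. With 1 sample left out, DE members ranged from 4 to 6, from 2 to 5 and from 0 to 2, and members past the adjusted p from 8 to 16, from 6 to 11 and from 0 to 5 in the 3 comparisons. SVEP1, COL9A2, COL16A1 and COL4A5 had at most 63 counts in any sample, and the smallest change detectable at such counts was not determined.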
